A study of Mus musculus with 21 samples.

Results

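The 44 genes described here drive or mark cell division, and they were taken by symbol from a raw count table of 22136 genes measured by RNA-seq in left ventricular (LV) tissue. They fall into 5 G1 cyclins and kinases, 4 inhibitors of the cycle, 14 genes of S phase and 21 genes of G2/M and mitosis. Of the 44, 42 reached 10 or more counts in 3 or more of the 21 libraries and were tested among 12685 genes that met the same minimum. Cdk6, a G1 kinase, and Bub1, a spindle checkpoint kinase, reached 10 counts in only 2 libraries each and were not tested. All libraries came from wild-type male C57BL/6J mice that were 8 weeks old on delivery, and the study asked what the GLP-1 receptor agonist semaglutide (Sema) does to a heart under pressure overload. Mice had a sham operation or transverse aortic constriction (TAC), which narrows the aorta and loads the left ventricle, and then received vehicle or intraperitoneal Sema at 60 per kg and day, a mass given as mg in the labels and as µg in the study's methods. Each group had 3 libraries: Sham 1-3 and Sham 4-6 (sham, vehicle), Sham + Sema (no duration in its label), Sham + Sema 4W, TAC 8W (TAC for 8 weeks, vehicle), TAC 8W + Sema 8W (Sema through all 8 weeks) and TAC 8W + Sema 4W (Sema for 4 weeks). Sham 1-3 and Sham 4-6 carry the same label and were kept apart. The sources do not say that each library is 1 mouse, so the p-values measure the spread between these libraries.

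As background, a cell enters the cycle when D-type cyclins with Cdk4 or Cdk6 inactivate the retinoblastoma protein Rb1 and release E2f factors, which switch on the genes of DNA replication. Cyclin B with Cdk1 then starts mitosis, and kinesins, condensins, Aurora kinases and the spindle checkpoint separate the chromosomes. Transcripts of G2/M genes accumulate in dividing cells and are scarce in resting ones. Adult cardiomyocytes rarely divide, whereas fibroblasts, endothelial cells and immune cells of the heart can.

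The labels name mouse cardiomyocytes, but the study's text names LV tissue. Markers of other cell types were present in every library, with sums of 279 to 3292 CPM (read counts scaled to the library total) for 8 fibroblast genes and 324 to 824 CPM for 8 endothelial genes. In bulk tissue, fewer cells of a type and less RNA per cell cannot be told apart. Total counts ran from 8897837 to 17170139 per library. The 13 mitochondrially encoded genes took 20.2% to 40.8% of counts in the 12 libraries of Sham 1-3, Sham + Sema, TAC 8W and TAC 8W + Sema 8W, and 43.8% to 54.9% in the 9 libraries of the other groups. TAC 8W + Sema 4W replicate 3 stood apart from its group (chi-square per degree of freedom over genes of 141 and 146 against the other 2 libraries, and 6.5 between those 2). Other groups held such a library too, with a smaller contrast. The values were 132 and 76.4 for TAC 8W replicate 1, and 38.0 between the other 2 libraries. For Sham + Sema replicate 3 they were 63.4 and 99.0, and 12.4 between the other 2.

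Levels of the members differed widely by role. On a scale that allows comparison between genes (mean CPM per kb of exons over all libraries), Cdk4 (15.2), Pcna (13.3), Cdkn1c (5.47), Cdkn2c (4.12) and Ccnd3 (3.36) were the most abundant members. Pcna is the sliding clamp of DNA polymerase, Cdkn1c (p57) and Cdkn2c (p18) inhibit cyclin-dependent kinases, and Ccnd3 is a D-type cyclin. Among G2/M genes the highest level was that of Smc4, a condensin subunit, at 1.85, and the lowest was that of Cenpe, a kinetochore motor, at 0.0522. All but 2 of the 20 G2/M genes tested fell below 10 counts in at least 1 library, so counting error is large in their values. Without the TAC 8W libraries, Ccnb1 and Birc5 would not have met the count minimum. Exons of 14 members (Ccnd1, Ccnd2, Ccnd3, Cdk4, Cdk6, Cdkn1c, Rb1, Ccne2, Cdk2, Mcm7, Ccna2, Kif20a, Ube2c and Nusap1) overlap a gene on the other strand, and since the counting is not stated to use strand, reads of such pairs cannot be told apart.

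The summed level of the G2/M genes was 20.9, 15.7 and 25.4 CPM in Sham 1-3, 25.6, 21.7 and 38.1 CPM in Sham + Sema, 45.0, 24.4 and 45.7 CPM in TAC 8W, and 14.1, 10.8 and 11.8 CPM in TAC 8W + Sema 8W. The TAC 8W + Sema 8W libraries were thus below all 9 others of these groups, while TAC 8W replicate 2 lay within the range of the shams. The S phase sum had means of 89.1 ± 2.05 CPM in Sham 1-3, 104 ± 17.3 CPM in TAC 8W and 77 ± 5.68 CPM in TAC 8W + Sema 8W (SD, n = 3 each). The S phase sums of TAC 8W and TAC 8W + Sema 8W did not overlap, but those of TAC 8W and Sham 1-3 did. For G1 cyclins and kinases the means were 84.0 ± 4.97, 96.9 ± 6.13 and 91.4 ± 7.87 CPM, and TAC 8W + Sema 8W overlapped with both other groups. The G1 sums of TAC 8W (92.6 to 104 CPM) lay above those of Sham 1-3 (81.0 to 89.8 CPM) without overlap. In the other 9 libraries the G2/M sum was 49.3 ± 7.37 CPM in Sham 4-6, 49.5 ± 14.6 CPM in Sham + Sema 4W and 39.2 ± 10.2 CPM in TAC 8W + Sema 4W. These levels were above those of Sham 1-3, with Smc4 alone giving 17.8 ± 0.569 CPM of the Sham 4-6 sum.

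**Figure D1:**
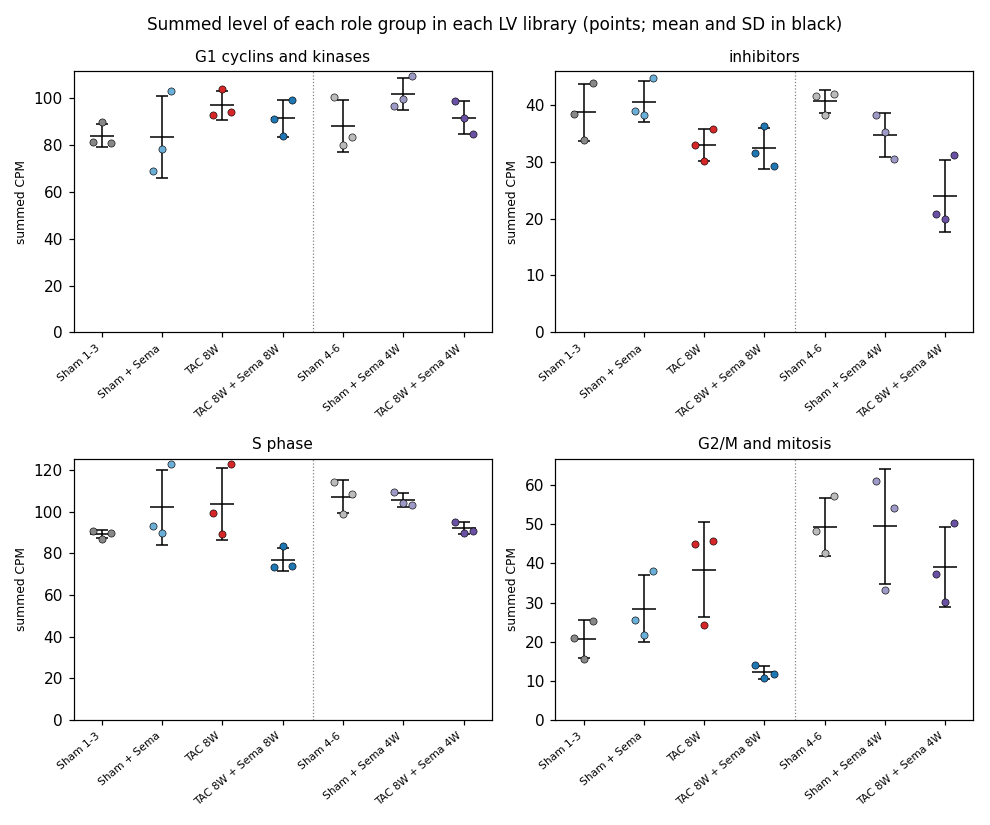
Summed CPM of the tested members of each role (y axis) in each library (points) of the 7 sets of libraries (x axis), with mean and SD in black and a dotted line between the 12 libraries with lower and the 9 with higher mitochondrial share. The G2/M sum of TAC 8W + Sema 8W, 10.8 to 14.1 CPM, lies below that of every other library, whereas the G1 sums of the groups lie close together.

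The first comparison asked which division genes differ after 8 weeks of pressure overload. No member passed an adjusted p of 0.05 in TAC 8W against Sham 1-3 by edgeR, where 2.19% of all genes did, and 10 of the 42 had an unadjusted p below 0.05, against 12% of all genes. limma-voom also called 0 members, and DESeq2 called 2, Cenpf lower (adjusted p = 0.0320) and Ube2c higher (adjusted p = 0.0461). The values of G2/M genes nevertheless lay mostly on 1 side. Of the 20, 19 had a log2 fold change above 0, with a median of 1.20 against 0.08 for all genes. In 11 of the 20 all TAC 8W libraries were above all Sham 1-3 libraries, which held for 11.6% of all genes, and in 1 they were all below, which held for 8.7%. The 20 include Ccnb1 and Birc5, which met the count minimum only with the TAC 8W libraries. The median was 0.17 for S phase, 0.36 for G1 cyclins and kinases and -0.44 for inhibitors, and the differences between roles were not tested. Of the inhibitors 3 lay below 0, while Rb1 was higher without overlap, at 8.51 to 11.5 CPM in TAC 8W against 5.08 to 6.91 CPM in Sham 1-3 (log2 fold change 0.64, not called). The highest S phase value was 1.31, that of E2f1, with overlapping groups.

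Mki67, whose protein Ki-67 coats mitotic chromosomes and is the usual stain for cycling cells, had the highest G2/M value of this comparison. It measured 0.817, 0.785 and 0.740 CPM in Sham 1-3 and 4.65, 1.15 and 2.38 CPM in TAC 8W, which gives a log2 fold change (± SE) of 1.82 ± 0.61 with an edgeR adjusted p of 0.156. The groups did not overlap, but TAC 8W replicate 2 lay close to the shams. Ube2c, which loads ubiquitin for the anaphase-promoting complex, measured 1.32, 0.846 and 1.32 CPM in Sham 1-3 and 3.19, 2.31 and 4.98 CPM in TAC 8W. Its log2 fold change was 1.59 ± 0.48 (edgeR adjusted p = 0.106). Exons of Ube2c share 592 bases with the troponin gene Tnnc2 on the other strand.

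Mcm6, a subunit of the replicative helicase, was the single S phase gene with an unadjusted p below 0.05, at 9.43, 4.65 and 5.02 CPM in Sham 1-3 and 13.1, 8.78 and 13 CPM in TAC 8W, with overlapping groups (0.87 ± 0.36, edgeR adjusted p = 0.305).

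Cenpf, a large kinetochore and nuclear envelope protein, was the exception among G2/M genes. It measured 3.77, 1.27 and 4.44 CPM in Sham 1-3 and 0.923, 0.0887 and 1.07 CPM in TAC 8W, with every TAC 8W library below every sham (log2 fold change -2.10 ± 0.70, edgeR adjusted p = 0.152). After Sema for 8 weeks it measured 0.402, 0.303 and 0.415 CPM, where it fell against Sham 1-3 by 3.05 ± 0.75 on the log2 scale (edgeR adjusted p = 0.0294). The call was lost without Sham 1-3 replicate 1 or 3 and without any 1 of the 3 treated libraries. Against Sham 1-3, TAC 8W + Sema 8W had 2 members called lower by edgeR, Cenpf and Smc4, where 2.26% of all genes were, and 8 members with an unadjusted p below 0.05, all lower, where 11.7% of all genes were. The G2/M median of that comparison was -0.65, with 17 of 20 values below 0. DESeq2 called 3 members, with Mcm4 added, and limma-voom 0.

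Other genes of the pathway came from lists of 24 S phase genes, 28 G2/M genes and 32 regulators, which were tested by edgeR alone. With TAC 8W, 0 of 19 other S phase genes tested passed (0 at an unadjusted p below 0.05, median 0.18) and 0 of 18 other G2/M genes (6 at that level, median 0.87). Of 27 other regulators tested, 3 rose. Cdkn1a (p21), an inhibitor of cyclin-dependent kinases, measured 2.14, 5.32 and 10.6 CPM in Sham 1-3 and 69.7, 34.0 and 68.6 CPM in TAC 8W, with no overlap (3.27 ± 0.52, edgeR adjusted p = 0.0021). Myc, a growth transcription factor, rose by 2.89 ± 0.59 and Btg2, an anti-proliferative gene, by 2.75 ± 0.49 on the log2 scale (edgeR adjusted p = 0.0106 and 0.0045). Cdkn1a was also higher than in Sham 1-3 in TAC 8W + Sema 8W, at 61.8, 59.3 and 49.4 CPM (3.25 ± 0.52, edgeR adjusted p = 0.0027). In Sham + Sema, without TAC, Cdkn1a measured 48.4, 38.5 and 11.7 CPM, above every Sham 1-3 library but not called.

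The second comparison asked what Sema given through the 8 weeks changed in the loaded heart. Against TAC 8W, TAC 8W + Sema 8W had 6 members lower and 0 higher by edgeR at an adjusted p below 0.05, and all 6 were G2/M genes: Mki67, Kif23, Top2a, Tpx2, Smc4 and Ccnb2. Over all genes 5.15% were called lower and 0.497% higher. All 20 G2/M genes had a log2 fold change below 0, with a median of -1.88 against -0.12 for all genes, and 15 of the 20 had an unadjusted p below 0.05, against 16.1% of all genes in that direction. In 16 of them every TAC 8W + Sema 8W library was below every TAC 8W library, which held for 18.9% of all genes. The 20 include Ccnb1 and Birc5, which met the count minimum only with the TAC 8W libraries, the higher group here. DESeq2 called 7 members and limma-voom 8, all lower, among them the same 6. The shares of all genes called above are those of edgeR, so these 2 counts have no share of their own method beside them. Whether the G2/M genes differed more than other roles was not tested.

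Mki67 (chr7:135689784-135716361) measured 0.287, 0.202 and 0.138 CPM in TAC 8W + Sema 8W against 4.65, 1.15 and 2.38 CPM in TAC 8W, a total of 11 counts over 3 libraries against 165 (coordinates here and below are mm10). All 3 treated libraries were below every TAC 8W and every sham library, and the log2 fold change was -3.66 ± 0.69 (edgeR adjusted p = 0.0038). Mki67 passed without any 1 of the 21 libraries and under each of the 12 other settings in which it was tested, within -4.01 to -2.79. Kif23 (chr9:61915905-61946774), a kinesin of the central spindle needed for cytokinesis, measured 1.35, 0.709 and 2.30 CPM in TAC 8W and 0.172, 0.151 and 0 CPM in TAC 8W + Sema 8W, which is 6 counts in all. It fell by 3.58 ± 0.85 on the log2 scale (edgeR adjusted p = 0.0157).

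Top2a (chr11:98992943-99024189), the topoisomerase that untangles replicated chromosomes, measured 4.46, 1.33 and 4.83 CPM in TAC 8W and 0.977, 0.404 and 0.484 CPM in TAC 8W + Sema 8W (log2 fold change -2.50 ± 0.67, edgeR adjusted p = 0.0303). The groups did not overlap, although TAC 8W replicate 2 was closer to the treated libraries than to the other 2 of its group. Tpx2 (chr2:152847964-152895321), which activates Aurora A on the spindle, measured 2.81, 0.887 and 2.30 CPM in TAC 8W and 0.460, 0.404 and 0.207 CPM after Sema (-2.46 ± 0.57, edgeR adjusted p = 0.0132). Ccnb2 (chr9:70407692-70421547), a mitotic B-type cyclin, measured 1.88, 1.42 and 1.84 CPM in TAC 8W and 0.805, 0.303 and 0.346 CPM after Sema (-1.81 ± 0.46, edgeR adjusted p = 0.0224). In Ccnb2 the 3 TAC 8W libraries lay close together, and the treated libraries spanned the level of Sham 1-3, which was 0.672 ± 0.0762 CPM.

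Smc4 (chr3:69004738-69034623), a core subunit of the condensin complexes that compact chromosomes, had the lowest adjusted p of the 6. It measured 7.19, 4.17 and 5.06 CPM in TAC 8W and 1.32, 0.555 and 1.18 CPM in TAC 8W + Sema 8W, where it fell by 2.44 ± 0.39 on the log2 scale (edgeR adjusted p = 0.0015). It was also below Sham 1-3, at 3.33, 2.11 and 3.95 CPM, and fell against that group by 1.62 ± 0.39 (edgeR adjusted p = 0.0293), a call lost without the same libraries as that of Cenpf. Smc4 was the single member called in the interaction of TAC and Sema, which compares the effect of Sema in TAC with its effect in sham hearts (-2.55 ± 0.54, edgeR adjusted p = 0.0395, where 0.441% of genes were called lower). DESeq2 called 2 members, with Mki67 added, and limma-voom 0. The edgeR call was lost in 13 of the 21 fits that left out 1 library. In the interaction all 20 G2/M genes, Ccnb1 and Birc5 included, had a value below 0, with a median of -1.98. Of them 11 had an unadjusted p below 0.05, against 9.32% of all genes in that direction. Mki67 and Ccnb2 missed the threshold there, at -3.89 ± 0.95 and -2.68 ± 0.65 (edgeR adjusted p = 0.0669 for each).

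**Figure D2:**
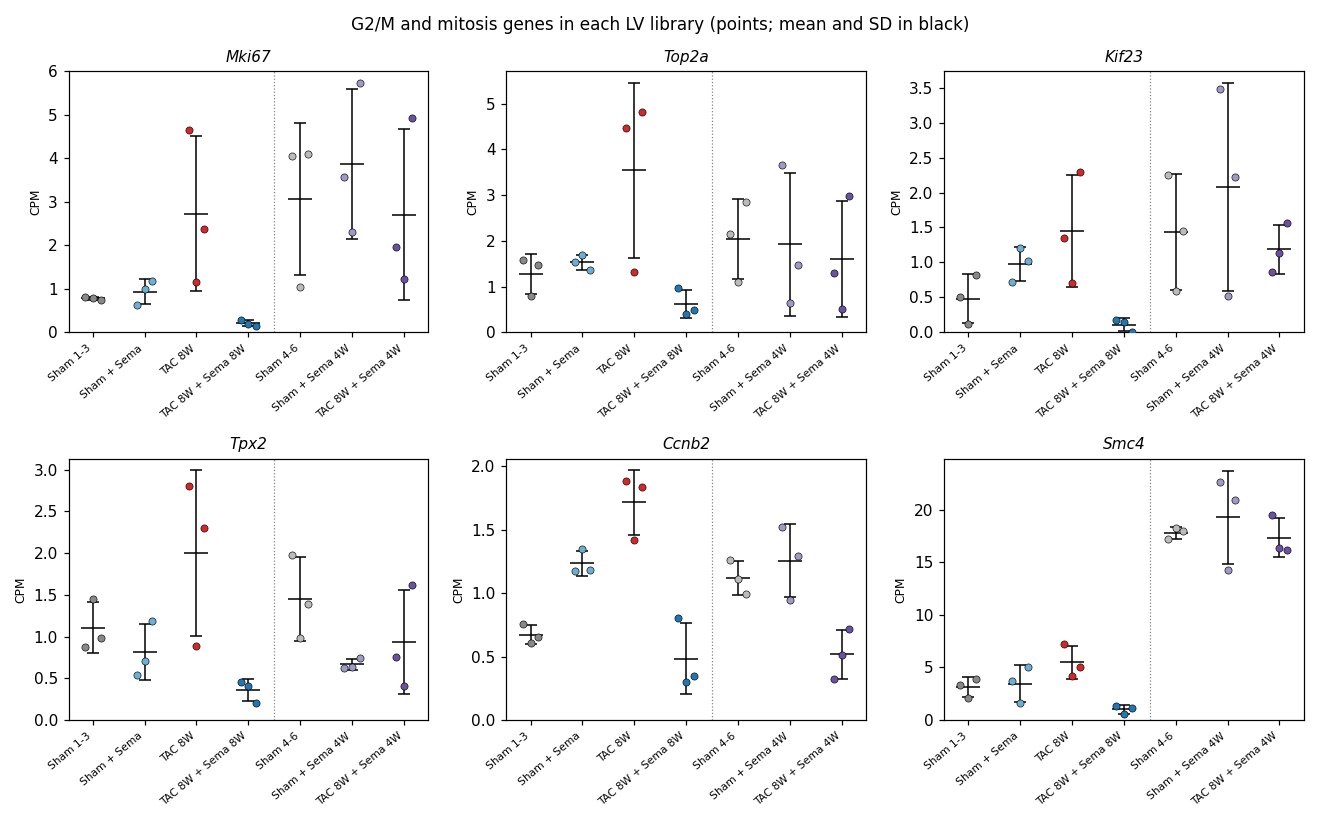
CPM (y axis) of the 6 G2/M genes that fell with Sema 8W, in each library (points) of the 7 sets of libraries (x axis), with mean and SD in black. In each panel the 3 TAC 8W + Sema 8W points lie below the 3 TAC 8W points, and Smc4 lies between 14.2 and 22.6 CPM in the 9 libraries right of the dotted line against 0.555 to 7.19 CPM left of it.

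The other 14 G2/M genes lay below 0 without passing. Nusap1, which attaches microtubules to chromosomes, measured 0.654, 0.621 and 1.15 CPM in TAC 8W and 0.172, 0.303 and 0 CPM after Sema, without overlap (-2.20 ± 0.71, edgeR adjusted p = 0.0715), and was called by limma-voom alone. Cdk1, the kinase that starts mitosis, measured 3.62, 1.6 and 4.21 CPM in TAC 8W and 1.32, 1.01 and 1.45 CPM after Sema, again without overlap (-1.32 ± 0.52, edgeR adjusted p = 0.150). Kif20a, a cytokinesis kinesin that reached 10 counts in every library, measured 4.04, 3.01 and 4.52 CPM in TAC 8W and 2.59, 2.62 and 1.52 CPM after Sema (-0.78 ± 0.35, edgeR adjusted p = 0.213). Smc2, the partner of Smc4 in condensin, had 1 count in all over the 3 treated libraries and 0 counts in 1 TAC 8W library, and did not pass (edgeR adjusted p = 0.120). Aurka, the Aurora A kinase, had the value nearest to 0 (-0.70 ± 0.65).

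Some libraries carried more of the calls than others, over all genes as well as among members. Across the fits that left out 1 library, edgeR called 164 to 894 of all genes, against 716 with every library. Without TAC 8W replicate 1, 2 of the 6 calls remained, Mki67 and Smc4. Without TAC 8W replicate 3, 3 of the 6 remained, Mki67, Smc4 and Tpx2, and the inhibitor Cdkn1c was called higher (1.21, edgeR adjusted p = 0.0496). On the treated side, leaving out replicate 2 lost Ccnb2 and Top2a and added Ccne2 as lower, and leaving out replicate 3 kept Mki67 and Smc4 alone. TAC 8W replicates 1 and 3 also had the higher sums of fibroblast markers, 3292 and 1322 CPM, than replicate 2 with 695 CPM, and the treated libraries had 521 to 689 CPM. This split was not particular to fibroblast markers. Replicates 1 and 3 were also above replicate 2 in endothelial (601 and 719 against 390 CPM), macrophage (264 and 149 against 66.6 CPM) and mural markers (293 and 222 against 203 CPM). In cardiomyocyte markers they were below it (23292 and 36828 against 42048 CPM). Of 8 fibroblast markers, 4 rose with TAC and the same 4, Col1a1, Col1a2, Col3a1 and Postn, fell with Sema 8W, with medians over the 8 of 1.24 and -1.31 on the log2 scale. Of 8 macrophage markers 7 were tested, and by edgeR 0 were called and 0 had an unadjusted p below 0.05 in each of the 2 comparisons. Of 8 cardiomyocyte markers 1 fell with Sema 8W, Ttn (titin, -1.67 ± 0.41, edgeR adjusted p = 0.0181), and the sum of the 8 was 23292 to 42048 CPM in TAC 8W and 32561 to 35884 CPM after Sema. Of 6 mural markers 1 fell, Rgs5 (-1.27 ± 0.33, edgeR adjusted p = 0.0246), with sums of 203 to 293 CPM and 162 to 265 CPM. Of 8 endothelial markers 0 were called by edgeR and 2 were lower at an unadjusted p below 0.05, with sums of 390 to 719 CPM and 450 to 525 CPM. The part of cell types in the fall of G2/M genes was not tested. GC content moved with the treatment too. Across genes, the rank correlation of a gene's deviation from its mean with its GC content was 0.202 to 0.563 in the TAC 8W + Sema 8W libraries and -0.170 to -0.0771 in TAC 8W. The same correlation with transcript length was 0.460 and 0.362 in TAC 8W replicates 1 and 3 and 0.0389 in replicate 2. In TAC 8W + Sema 8W the correlation with length was -0.201 to 0.187. With the GC and length trend removed, 4 members were called, without Top2a and Smc4.

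Of the other G2/M genes 18 were tested and 2 fell with Sema 8W by edgeR, where 5.15% of all genes did. At an unadjusted p below 0.05, 10 of the 18 were lower and 0 higher, where 16.1% of all genes were lower. Prc1, which bundles microtubules of the central spindle, measured 2.54, 0.355 and 2.07 CPM in TAC 8W and 0.230, 0.353 and 0.0691 CPM after Sema (log2 fold change -2.86 ± 0.77, edgeR adjusted p = 0.0313). Spc25, a subunit of the kinetochore, fell by 2.21 ± 0.65 (edgeR adjusted p = 0.0497). The median of the 18 was -1.38. Of 19 other S phase genes 0 were called by edgeR, with 2 at an unadjusted p below 0.05, and of 27 other regulators 0 were called, with 5 at that level.

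Genes of S phase gave smaller values in the same comparison. By edgeR 0 of 14 passed, 4 had an unadjusted p below 0.05, all lower, and 13 had a log2 fold change below 0, with a median of -0.57. The value furthest from 0 was that of Ccne2, an E-type cyclin, at 1.08, 0.621 and 1.07 CPM in TAC 8W and 0.0575, 0.404 and 0 CPM in TAC 8W + Sema 8W (-2.43 ± 0.81, edgeR adjusted p = 0.0832). DESeq2 and limma-voom each called it (adjusted p = 0.0467 and 0.0416). The 3 most highly counted members of this role gave small differences. Pcna measured 24.7, 30.7 and 35.2 CPM in TAC 8W and 25.3, 22.4 and 21.4 CPM after Sema, with overlapping groups (-0.39 ± 0.24). Rrm1, the large subunit of ribonucleotide reductase, measured 15.8, 11.4 and 16.2 CPM in TAC 8W and 11.3, 13.9 and 9.61 CPM after Sema (-0.32 ± 0.23). Mcm7, a helicase subunit, measured 7.12, 8.42 and 10 CPM and 7.87, 10.2 and 11.1 CPM (0.20 ± 0.24). All these groups overlapped. Tyms, which makes the thymidine nucleotide for DNA, had an unadjusted p below 0.05 at 5.08, 1.86 and 2.15 CPM in TAC 8W and 0.862, 1.06 and 1.45 CPM after Sema, without overlap (-1.45 ± 0.52, edgeR adjusted p = 0.110). Mcm6 and Mcm4 gave -0.84 ± 0.36 and -0.76 ± 0.29 (edgeR adjusted p = 0.189 and 0.134).

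G1 cyclins, kinases and inhibitors did not pass in this comparison by edgeR, 0 of 8 in all, with 2 inhibitors at an unadjusted p below 0.05, 1 in each direction (3.78% of all genes were higher at that level), and DESeq2 and limma-voom called 0 of them too. Cdk4, the partner kinase of D-type cyclins, measured 34.3, 50.3 and 42.5 CPM in TAC 8W and 45.7, 36.1 and 50.4 CPM after Sema, and the groups overlapped fully (0.06 ± 0.26). Ccnd3 measured 27, 31.8 and 30.3 CPM and 32.5, 31.2 and 39 CPM, also with overlap (0.21 ± 0.20). Ccnd1 measured 18, 14.2 and 16.4 CPM and 9.43, 11.6 and 8.09 CPM, without overlap (-0.74 ± 0.40, edgeR adjusted p = 0.320). The remaining D-type cyclin, Ccnd2, gave -1.37 ± 0.70 (edgeR adjusted p = 0.286), and its groups did not overlap either. Rb1 measured 11.5, 8.51 and 8.89 CPM in TAC 8W and 4.54, 4.44 and 1.38 CPM after Sema, without overlap (-1.47 ± 0.61, edgeR adjusted p = 0.176). Cdkn1c went the other way, at 4.69, 6.30 and 11.6 CPM in TAC 8W and 10.4, 14.7 and 12.9 CPM after Sema (0.75 ± 0.32, edgeR adjusted p = 0.192). The groups overlapped in Cdkn1c and in both other inhibitors. Cdkn1b (p27) measured 9.42, 4.61 and 7.05 CPM in TAC 8W and 7.36, 8.88 and 3.46 CPM after Sema (-0.10 ± 0.41). Cdkn2c measured 7.23, 10.7 and 8.27 CPM and 9.31, 8.23 and 11.5 CPM (0.15 ± 0.31).

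**Figure D3:**
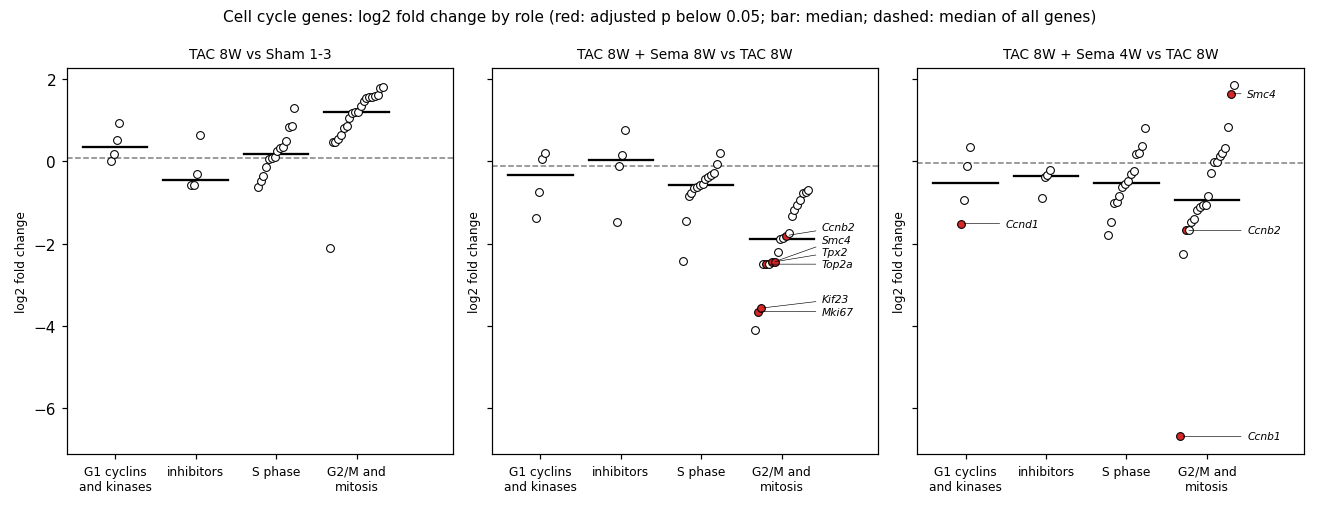
Log2 fold change (y axis) of the 42 tested members by role (x axis) in 3 comparisons, with red points for an edgeR adjusted p below 0.05, a bar at the median of the role and a dashed line at the median of all genes. With Sema 8W all 20 G2/M genes lie below 0 with a median of -1.88, while the medians of the other roles lie between -0.57 and 0.02.

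The promoters of the genes that fell together are shown because G2/M and S phase genes are known to be driven through different promoter elements. G2/M genes are typically bound by the DREAM and MuvB complexes at a cell cycle homology region (CHR) and by NF-Y at CCAAT boxes, and replication genes by E2f. The windows are RefSeq promoter sequences (GRCm38.p6, the assembly of mm10), 5′ to 3′, from 160 bases before the annotated start to 20 bases after it. Capitals mark matches, on either strand, to the CHR (TTTGAA or TTCGAA), the CCAAT box by its letters, and E2F (TTTGGCGC, TTTCGCGC, TTTCCCGC or TTTGCCGC). Mki67, Top2a, Ccnb2 and Kif23 fell with Sema 8W, and Mcm6 stands for S phase. Ccnb1 was called lower in the Sema 4W comparison described below, where treatment and set of libraries cannot be told apart. It met the count minimum only with the TAC 8W libraries, the higher group there, and did not pass against Sham 4-6.
Mki67, chr7:135716360-135716539, minus strand: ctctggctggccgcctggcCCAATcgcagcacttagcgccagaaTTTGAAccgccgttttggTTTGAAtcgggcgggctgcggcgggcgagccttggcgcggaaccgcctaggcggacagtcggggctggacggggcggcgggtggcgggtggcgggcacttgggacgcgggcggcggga
Top2a, chr11:99024170-99024349, minus strand: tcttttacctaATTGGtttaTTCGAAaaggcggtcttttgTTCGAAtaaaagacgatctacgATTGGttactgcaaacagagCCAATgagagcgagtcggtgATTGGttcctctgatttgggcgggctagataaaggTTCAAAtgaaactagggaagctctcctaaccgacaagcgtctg
Ccnb2, chr9:70421535-70421714, minus strand: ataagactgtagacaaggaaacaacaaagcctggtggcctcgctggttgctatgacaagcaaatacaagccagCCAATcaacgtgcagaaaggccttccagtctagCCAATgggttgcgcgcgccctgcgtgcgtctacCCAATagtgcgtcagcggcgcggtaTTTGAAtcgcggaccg
Kif23, chr9:61946780-61946959, minus strand: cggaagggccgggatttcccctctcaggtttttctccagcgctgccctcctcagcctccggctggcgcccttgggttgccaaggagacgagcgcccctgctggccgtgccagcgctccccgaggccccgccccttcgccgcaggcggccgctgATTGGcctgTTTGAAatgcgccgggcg
Ccnb1, chr13:100786467-100786646, minus strand: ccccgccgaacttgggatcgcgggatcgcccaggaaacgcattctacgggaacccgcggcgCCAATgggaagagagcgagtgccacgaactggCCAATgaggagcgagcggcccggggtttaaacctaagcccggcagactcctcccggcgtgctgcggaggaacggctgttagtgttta
Mcm6, chr1:128359686-128359865, minus strand: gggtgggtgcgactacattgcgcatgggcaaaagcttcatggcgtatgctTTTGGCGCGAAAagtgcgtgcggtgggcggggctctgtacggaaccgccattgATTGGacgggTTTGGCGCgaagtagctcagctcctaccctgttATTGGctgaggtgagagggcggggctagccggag
Of the 6 genes that fell with Sema 8W, Tpx2 and Smc4 were not matched to the promoter table. The other 4 each held a CHR match in the printed window, Ccnb1 held CCAAT boxes and no CHR match, and Mcm6 held CCAAT and E2F matches. The search itself covered 250 bases before to 50 after the start, and 33 of the 44 members were matched to the promoter table by symbol. There, 12 of 16 G2/M genes held a CHR match, as did 2 of 12 S phase genes, 0 of 3 G1 cyclins and kinases, 0 of 2 inhibitors and 21.7% of the 27025 genes in the table. CCAAT matches were found in 14 of 16 G2/M genes, 9 of 12 S phase genes and 41.1% of all genes. E2F matches were found in 1 of 16 G2/M genes (Cdk1), 5 of 12 S phase genes (Cdk2, Mcm3, Mcm5, Mcm6 and Mcm7) and 2.6% of all genes. TTCGAA equals its own reverse complement and was counted once. E2F matches on opposite strands overlapped in Mcm5 and Mcm6, and an E2F and a CCAAT match shared a base in Mcm7. A match describes letters in a window and no binding was measured.

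The third comparison asked what Sema for 4 weeks changed in the loaded heart. TAC 8W + Sema 4W differed from TAC 8W in 4 members by edgeR, Ccnd1, Ccnb1 and Ccnb2 lower and Smc4 higher, where 3% of all genes were lower and 4.19% higher. The 2 groups lie on opposite sides of the division by mitochondrial share, so treatment and set of libraries cannot be told apart here. G2/M genes had a median of -0.94 and S phase genes one of -0.52, against -0.03 for all genes. At an unadjusted p below 0.05 there were 12 members lower and 2 higher, where 11.9% of all genes were lower and 12.1% higher. DESeq2 called 5 members, with Cenpf added as higher, and limma-voom the same 4. Without TAC 8W + Sema 4W replicate 3, the library that stood apart, 15 members were called, 14 of them lower, and 3365 genes in all against 911 with it. The 11 added were Aurka, Ccna2, Cdk1 and Tpx2 of G2/M, E2f1, Mcm2, Mcm5, Rrm1 and Rrm2 of S phase, the D-type cyclin Ccnd2 and the inhibitor Rb1.

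Ccnd1 (chr7:144929931-144939925), the cyclin D1 that links growth signals to G1 entry, measured 18, 14.2 and 16.4 CPM in TAC 8W and 2.61, 4.12 and 10 CPM in TAC 8W + Sema 4W. The groups did not overlap, and it fell by 1.52 ± 0.41 on the log2 scale (edgeR adjusted p = 0.0295). Ccnd1 was also lower in Sham 4-6 (3.86, 6.06 and 6.88 CPM) than in Sham 1-3 (11, 14.3 and 8.30 CPM), without overlap and without passing (edgeR adjusted p = 0.193). Against Sham 4-6, from its own set of libraries, TAC 8W + Sema 4W differed by 0.01 ± 0.41. Exons of Ccnd1 share 1100 bases with LTO1 on the other strand.

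Ccnb1 (chr13:100778650-100786570), the main mitotic cyclin, had 0 counts in each of the 3 TAC 8W + Sema 4W libraries against 50 counts in TAC 8W (1.00, 0.266 and 1.61 CPM). With a floor of 3 counts over the group it was at least 11.4-fold lower (edgeR adjusted p = 0.0080). Ccnb1 reached 10 counts in 3 libraries, 2 of them TAC 8W, so it was tested only through the group in which it was high, and without TAC 8W replicate 1 or 3 it could not be tested. It was also nearly absent elsewhere in that set, with 6 counts in all of Sham 4-6 and 1 count in Sham + Sema 4W. Against Sham 4-6 the bound was at least 1.65-fold lower, and Ccnb1 did not pass (edgeR adjusted p = 0.234). A pseudogene named after Ccnb1 exists, and reads could be divided between them. The same holds for Ccnb2, Ccnd3 and Tyms, and for Pcna with 2 pseudogenes.

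Ccnb2 measured 0.326, 0.514 and 0.714 CPM in TAC 8W + Sema 4W, below each TAC 8W library, and fell by 1.68 ± 0.47 (edgeR adjusted p = 0.0346). It was lower than Sham 4-6 as well, at 0.993 to 1.26 CPM, without overlap but not past the threshold (-1.06 ± 0.48, edgeR adjusted p = 0.290). Ccnb2 was thereby the single member called lower against TAC 8W under both durations of Sema, 2 comparisons that share the TAC 8W libraries. Smc4 was higher than in TAC 8W by 1.65 ± 0.36 (edgeR adjusted p = 0.0095) at 19.5, 16.4 and 16.2 CPM, but the 6 sham libraries of the same set held 14.2 to 22.6 CPM and the difference from Sham 4-6 was -0.04 ± 0.34. Mki67 measured 1.96, 1.23 and 4.93 CPM, within the range of TAC 8W but for replicate 3 above it (-0.01 ± 0.57).

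Each of Ccnd1 and Ccnb2 lost its call without TAC 8W replicate 1, TAC 8W replicate 3, or TAC 8W + Sema 4W replicates 1 or 2, and 0 members were called when the 2 groups were fitted alone, where Ccnb1 did not meet the count minimum. In the other lists, Chaf1a, a chromatin assembly factor of S phase, and Cdca3, a trigger of mitotic entry, fell by 1.44 ± 0.36 and 2.31 ± 0.66 (edgeR adjusted p = 0.0187 and 0.0382). Of 8 fibroblast markers 5 fell in this comparison by edgeR (Col1a1, Col1a2, Col3a1, Pdgfra and Lum). Of 7 macrophage markers tested 1 fell, Adgre1, and 7 lay below 0. Of 8 endothelial markers 1 fell, Kdr, while 3 lay above 0. At an unadjusted p below 0.05, 4 endothelial markers were lower and 1 higher. Of 8 cardiomyocyte markers 0 were called, 7 lay above 0 and 3 were higher at that level, with a median of 0.70. Of 6 mural markers 0 were called, with 2 lower at that level. Their part in the values of the members was not tested.

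Measured against its own shams, TAC 8W + Sema 4W had 0 of 42 members called by edgeR (where 1.99% of all genes were), and 6 at an unadjusted p below 0.05, all lower (6.83% of all genes). limma-voom called 0 and DESeq2 1, the inhibitor Cdkn1c, which measured 4.89, 7 and 7.40 CPM against 19.4, 11.1 and 11.7 CPM in Sham 4-6 (edgeR log2 fold change -1.12 ± 0.33, adjusted p = 0.0844, DESeq2 adjusted p = 0.0317). Cdkn1a and Myc rose there by 2.51 ± 0.51 and 3.41 ± 0.60 (edgeR adjusted p = 0.0141 and 0.0052). Cdkn1a measured 40.2, 37.5 and 15.7 CPM against 6.83, 4.76 and 4.83 CPM in Sham 4-6, without overlap. Myc measured 43.0, 45.1 and 3.51 CPM against 3.86, 2.74 and 1.99 CPM. For Myc, TAC 8W + Sema 4W replicate 3, the library that stood apart, thus lay within the range of Sham 4-6. When the difference of each TAC group from its own shams was compared, 0 members and 0.0158% of all genes were called by edgeR, and 0 members by DESeq2 and limma-voom. There 18 of 20 G2/M genes had values below 0, with a median of -1.48, and 5 of 42 members had an unadjusted p below 0.05, all lower, against 4.53% of all genes.

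**Figure D4:**
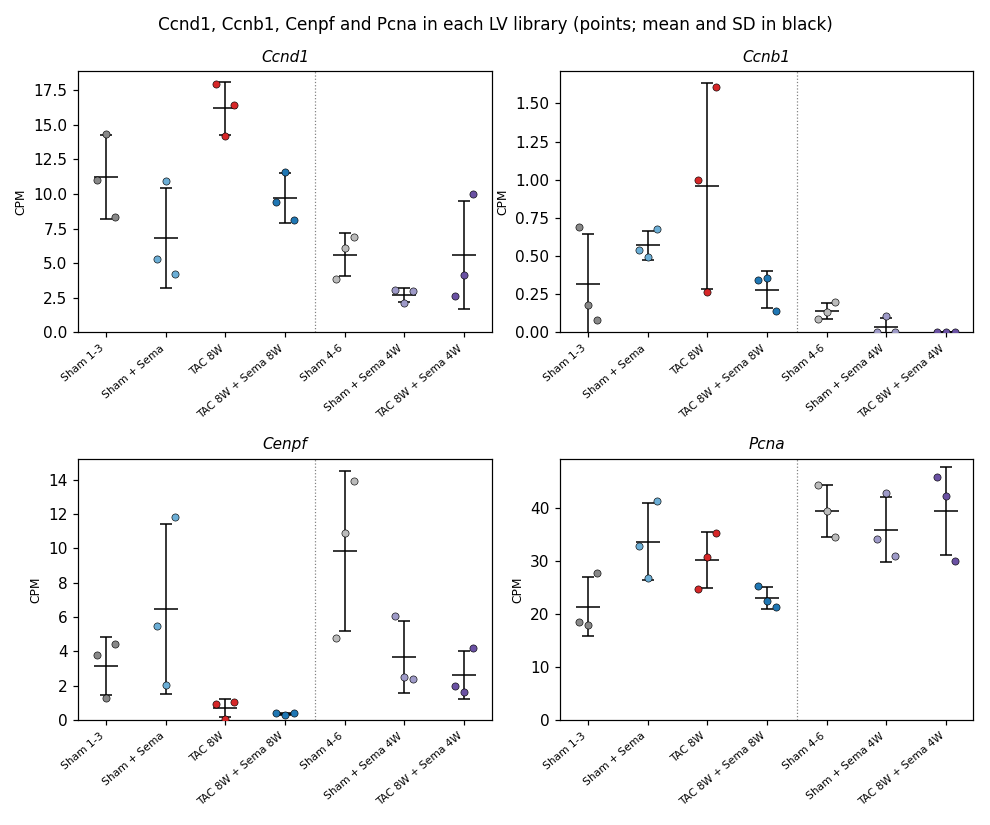
CPM (y axis) of Ccnd1, Ccnb1, Cenpf and Pcna in each library (points) of the 7 sets of libraries (x axis), with mean and SD in black. Ccnb1 is at 0 in the 3 TAC 8W + Sema 4W libraries, Ccnd1 is at 2.61 to 10 CPM there against 14.2 to 18 CPM in TAC 8W, and Cenpf is at 0.0887 to 1.07 CPM in the TAC 8W and TAC 8W + Sema 8W libraries.

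In sham hearts Sema gave no called member. In Sham + Sema against Sham 1-3, 0 of 42 members and 0% of all genes passed by edgeR, and 1 member had an unadjusted p below 0.05, against 3.62% of all genes. That member was Pcna, at 32.8, 26.8 and 41.3 CPM against 18.4, 17.9 and 27.8 CPM, with overlapping groups (0.65 ± 0.24). In Sham + Sema 4W against Sham 4-6, 0 of 42 members and 0% of all genes passed, and 4 members had an unadjusted p below 0.05, against 14.2% of all genes. DESeq2 and limma-voom called 0 members in either comparison, and over all genes DESeq2 called 3 and 0 and limma-voom 0 and 0. The G2/M medians were 0.35 and 0.24.

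The 2 sets of vehicle shams differed from each other in 2 members, both higher in Sham 4-6, where 2.81% of all genes were higher by edgeR, and 7 members were higher at an unadjusted p below 0.05, where 10.4% of all genes were. DESeq2 called 3 members, with Mki67 added, and limma-voom the same 2. Smc4 measured 17.2, 18.3 and 18 CPM in Sham 4-6, all far above the 3.33, 2.11 and 3.95 CPM of Sham 1-3, and was higher by 2.51 ± 0.37 on the log2 scale (edgeR adjusted p = 0.0015), a call kept under every setting in which it was tested. Pcna measured 44.3, 39.3 and 34.4 CPM against 18.4, 17.9 and 27.8 CPM (0.88 ± 0.24, edgeR adjusted p = 0.0467), and this call was lost in 14 of the 21 fits without 1 library. Mki67 measured 4.04, 1.04 and 4.10 CPM in Sham 4-6 against 0.740 to 0.817 CPM in Sham 1-3, and did not pass (1.95 ± 0.61, edgeR adjusted p = 0.0890). The Mki67 difference between the 2 sham sets was thus of the size of that between TAC 8W and Sham 1-3. With all 6 shams as 1 group, 2 members were called with TAC, Cenpf lower and Ube2c higher (edgeR adjusted p = 0.0168 and 0.0297).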

How the data were processed

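RNA was sequenced from LV tissue in 21 libraries, 3 in each of 7 sets. Per the labels and the study's methods, the authors trimmed reads with cutadapt 1.11, aligned them to mm10 with HISAT2 and counted them per gene with featureCounts 1.6.0, and they deposited raw counts. Which annotation was used, and whether strand was, is not given in the sources used here. Of 22136 Ensembl IDs, 22041 matched a symbol. In the table's header, TAC columns marked high were read as TAC 8W + Sema 8W, since the study calls the dose of its 8-week experiment the high dose. The columns marked M, which a sham and a TAC group share, were read as the 4-week groups that remained. The letter M is not explained, and whether it stands for a dose or a duration is not stated.

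Genes with 10 or more counts in 3 or more libraries (12685) were fitted with 7 means in edgeR 4.0.16 (TMM factors, quasi-likelihood test, R 4.3.3), and p-values were adjusted over all of them (Benjamini-Hochberg, threshold 0.05). CPM use the TMM-scaled totals. The common dispersion corresponds to a biological coefficient of variation of 34.6%, and no 2 libraries agreed within counting noise. Groups were called non-overlapping when all 3 CPM of one lay above all 3 of the other. Alternatives used DESeq2 1.42.0, limma 3.58.1 (voom) and other filters, scalings and designs. Shares of all genes called are those of the edgeR fit unless another method is named beside them. The fit was tested on simulated data.

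Members and lists were chosen with earlier results of these data known. Named are all members past the threshold in any comparison, the 3 with the highest mean CPM of each role, the extremes of a role and called genes of the other pathway lists. Called marker genes of other cell types were named after their values were seen. So were Ube2c, Nusap1, Cdk1, Mcm6, Mcm4, Tyms, Rb1 and the members called only without 1 library. Gene positions and exon lengths came from GENCODE M21 (GRCm38) and promoters from RefSeq. Replicate numbers did not pair the libraries.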

Additional observations from a re-analysis of the deposited data

Results flagged for a closer look

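Over the 6 vehicle shams, 7 of the tested members had 1 library far from the other 5 by Dixon's test. Chance gives about 1 in 20 for 6 libraries drawn alike. That rate cannot be applied directly here, since the 2 sham sets differed and several of the members share 1 library. In Sham 4-6 replicate 4, Cdk4 (65.0 CPM), Cdkn1c (19.4 CPM) and Ccna2 (2.34 CPM) were high and Rb1 (1.17 CPM) was low. Ccnd2 was high in Sham 1-3 replicate 2 (7.43 CPM), Ccnb1 in Sham 1-3 replicate 1 (0.692 CPM) and Kif11 in Sham 4-6 replicate 6 (1.79 CPM). The effect of Sema on Smc4 differed between TAC and sham hearts in the interaction test (log2 -2.55, edgeR adjusted p = 0.0395).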

How the results depend on the processing

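Counts of members called under each setting are given beside those of the edgeR fit. For TAC 8W against Sham 1-3 (0), DESeq2 gave 2 and all 6 shams as 1 group 2. For TAC 8W + Sema 8W against TAC 8W (6), requiring 10 counts in every library left 1, fitting the groups compared alone gave 2, and the replicate block gave 2, Mki67 and Smc4 in both. For TAC 8W + Sema 4W against TAC 8W (4), these were 2, 0 and 3, where Ccnb1 could not be tested under the filter or with the groups alone, and all 6 shams as 1 group gave 1. For TAC 8W + Sema 8W against Sham 1-3 (2), limma-voom gave 0, 10 counts in every library 1, all 6 shams 7, and removal of the GC and length trend 0. For TAC 8W + Sema 4W against Sham 4-6 (0), DESeq2 gave 1 and 10 counts in every library 1. For Sham + Sema 4W (0), all 6 shams gave 2. Between the sham sets (2), RLE factors, upper quartile factors and no count filter gave 1 each and the groups alone 5. For the interaction (1), DESeq2 gave 2, and upper quartile factors, limma-voom, all 6 shams, the groups alone, the replicate block, leaving out the 13 mitochondrial genes and removal of the GC and length trend gave 0 each. The study used a limma p below 0.1. Taken as unadjusted, it gave by limma-voom, of 42 members, 22 with TAC 8W (20% of all genes), 27 with Sema 8W (30.7%), 22 with Sema 4W (37.3%), 10 for each treated TAC group against its shams (27.7% and 22.2%), 4 and 6 for Sema in shams (7.24% and 24.9%), 10 between the sham sets (30.3%), 22 for the interaction (17.2%) and 13 for the sham-corrected comparison (10.7%).

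Leaving out each library in turn gave 0 with TAC 8W, 2 to 6 with Sema 8W, 1 to 15 with Sema 4W, 0 to 2 for TAC 8W + Sema 8W and 0 to 3 for TAC 8W + Sema 4W against their shams, 1 to 3 between the sham sets and 0 to 3 for the interaction. Over all genes the same fits called, in this order, 76 to 416, 164 to 894, 298 to 3365, 83 to 776, 57 to 889, 49 to 846 and 0 to 116. The replicate numbers did not pair the libraries: 11 of 45 same-numbered pairs had a correlation of deviations above 0.1. The 196 genes higher and 82 lower with TAC 8W became 166 and 106 with RLE factors and 153 and 116 with upper quartile factors, and the median of all genes moved from 0.08 to -0.00 and -0.03. No called member changed sign under these settings. Of values not called, Smc4 with TAC 8W turned to -0.92 against all 6 shams as 1 group, and the G2/M median with Sema 4W to 0.74 when 10 counts were required in every library, which left Kif20a and Smc4. Causes were not tested. Low counts limit the G2/M genes, 18 of 20 of which had a library under 10 counts.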
